A study of Mus musculus with 2 samples.

Results

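The genes described are the potassium, calcium and sodium channel subunits of the mouse adrenal gland, as measured by RNA sequencing of the whole organ. They were chosen by name: protein-coding genes whose symbol begins with Kcn (potassium channel subunits), with Cacna or Cacnb (calcium channel subunits), or reads Scn followed by a number and the letter a or b (sodium channel subunits). The pattern matched 126 genes. Kcnk3, Kcnk9, Kcnj5, Cacna1d and Cacna1h were left out of it, which leaves 121 of the 21474 named protein-coding genes in the tables. The RNA came from C57BL/6J mice, an inbred strain, aged 8 weeks. The labels describe mixed-sex littermates without genetic change or treatment, and list sex as not collected. There was 1 group with 2 libraries, which the labels number as biological replicates 1 and 2. Whether a library came from 1 animal or from pooled glands is not given in the labels, so the spread between them cannot be assigned to single animals. The libraries were stranded and read as pairs of 76 nt from poly(A)+ RNA longer than 200 nt, after removal of ribosomal RNA.

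Ion channels are membrane proteins that let ions cross the membrane down their gradients. Potassium channels hold the resting potential negative. Voltage-gated calcium channels open on depolarization and let calcium in, which drives aldosterone synthesis in glomerulosa cells of the cortex and catecholamine release from chromaffin cells of the medulla. Voltage-gated sodium channels carry the upstroke of the action potential in neurons and chromaffin cells. Most channels combine pore-forming alpha subunits with auxiliary subunits, often named beta, that change gating or bring the channel to the surface.

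Gene levels are in TPM, a share of transcripts per gene length scaled to a fixed total, and expected counts are the deposited estimates of read pairs per gene. The mouse genes held 47615328 expected counts in replicate 1 and 52890686 in replicate 2. The defining markers of the organ were abundant: 8 of 8 cortex markers and 8 of 8 chromaffin markers reached 1 TPM in each library. Some markers of tissue around the gland were also present, and their sums differed between the libraries. The 6 adipocyte markers summed to 12272 TPM in replicate 1 and 5274 TPM in replicate 2, the 6 stomach and pancreas markers to 97.1 and 3.98 TPM, and the 4 liver markers to 4.4 and 29.8 TPM, in the same order. All 6 adipocyte markers reached 1 TPM in both libraries, but only 2 of 6 stomach and pancreas markers and 1 of 4 liver markers. Cfd made up most of the adipocyte sum (9884 and 3984 TPM), whereas Lep was higher in replicate 2 (7.74 and 11.8 TPM). Clps (53.4 and 1.63 TPM) and Pgc (27.6 and 1.57 TPM) made up most of the stomach and pancreas sum. In that list Cpa1 had no read, and Prss2 was higher in replicate 2 (0.09 and 0.34 TPM). In a whole organ, fewer cells of a type and less RNA per cell cannot be told apart.

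The 121 channel genes of the set together made up a small share of the RNA. They summed to 810.6 TPM in replicate 1 and 739.6 TPM in replicate 2, or 0.0783% ± 0.0052 of the TPM of mouse genes (SD, n = 2). In both libraries, 43 of the 121 reached 1 TPM, the level called detected here, which is 35.5%. Over all named protein-coding genes, 54.6% were detected. A further 7 reached 1 TPM in 1 library only (Kcne3, Kcnip1, Kcnj4, Kcnj10, Kcnj11, Kcnj14 and Kcnk12) and 71 in neither. At the upper end, 12 were at 10 TPM or more in both libraries and 1, Kcnn2, was above 100 TPM. The 5 highest genes held 54.9% of the summed TPM in replicate 1 and 60.0% in replicate 2.

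The 3 ions were unevenly represented. Among potassium channel genes 32 of 91 were detected, among calcium channel genes 9 of 16, and among sodium channel genes 2 of 14. Potassium channel genes held 76.4% and 73.2% of the summed TPM in replicates 1 and 2. Calcium channel genes held 17.8% and 22.5%, and sodium channel genes 5.81% and 4.27%. By subfamily, the calcium- or sodium-activated potassium channels held most, 40.8% ± 2.7, followed by the voltage-gated potassium alpha subunits with 21.4% ± 1.6 and the calcium alpha-1 subunits with 10.3% ± 2.9 (SD, n = 2 each).

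**Figure D1:**
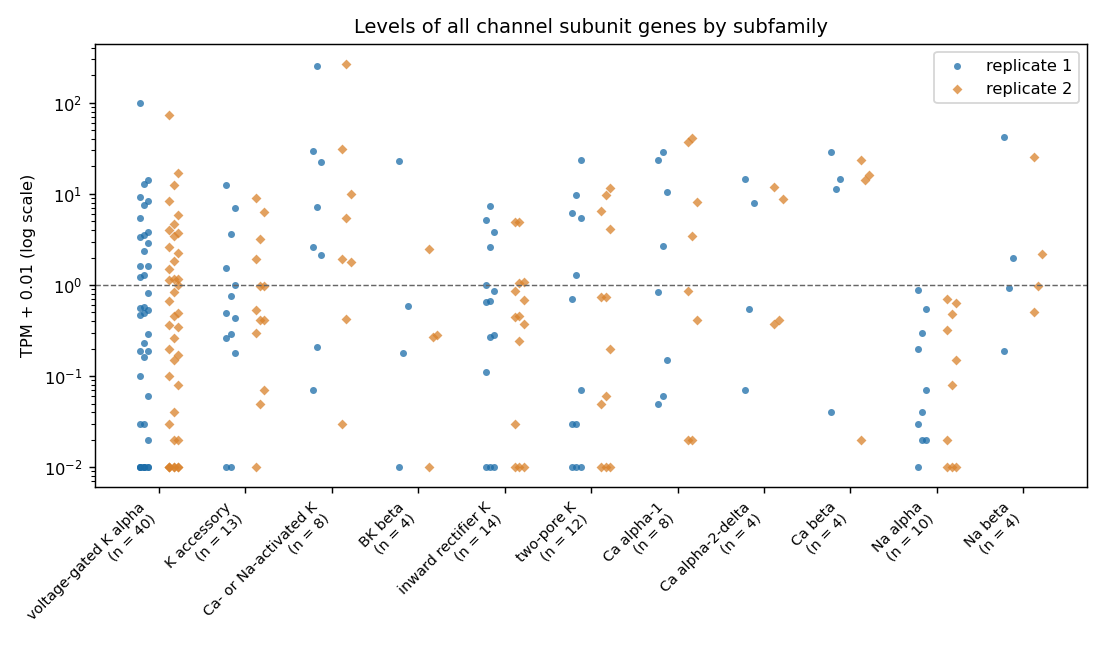
Levels of all 121 channel subunit genes by subfamily, as TPM + 0.01 on a log axis, with replicate 1 as circles left of replicate 2 as diamonds and the detection level of 1 TPM as a dashed line. No sodium alpha subunit reached the line in either library, whereas 6 of 8 calcium- or sodium-activated potassium channels lay above it in both.

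Among calcium- and sodium-activated potassium channels, Kcnn2 stood above every other member. Kcnn2 (ENSMUSG00000054477.10, GRCm38 chromosome 18, 45268860 to 45686024, plus strand) encodes the small-conductance channel SK2, which opens when calcium binds its calmodulin. It was at 251.0 in replicate 1 and 265.6 TPM in replicate 2. That was 31.0% and 35.9% of the summed TPM of the set, which leaves out Kcnk3 and Cacna1h. Its relatives were lower in both libraries. Kcnn1 (SK1) was at 7.22 and 5.47 TPM, and Kcnn4, the intermediate-conductance channel, and Kcnn3 (SK3) averaged 2.27 ± 0.47 and 1.97 ± 0.25 TPM (SD, n = 2 each). Kcnma1 (ENSMUSG00000063142.9, chromosome 14, 23289431 to 24014491, minus strand) encodes the pore of the large-conductance BK channel, which responds to both calcium and voltage, and was at 29.4 and 30.7 TPM. Kcnt1, the sodium-activated channel Slack, was at 22.5 in replicate 1 and 9.88 TPM in replicate 2, and was the only gene of this subfamily called different between the libraries by the 2-fold rule described below. Kcnt2 and Kcnu1, a BK relative known from sperm, stayed under 1 TPM.

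Most of the TPM of Kcnn2 came from transcripts that the annotation does not class as protein-coding. Kcnn2-206, a retained-intron transcript of 1970 nt in 3 exons, was at 123.4 in replicate 1 and 119.4 TPM in replicate 2. Kcnn2-207, a retained-intron transcript of 2845 nt in 5 exons, was at 113.6 and 133.0 TPM. Transcripts with at least 80% of the longest coding sequence among the transcripts that the tables list for the gene, called near-full coding below, summed to 5 TPM in replicate 1 and 13.2 TPM in replicate 2. Both retained-intron transcripts still overlap the coding exons for much of their length: 1329 of 1970 bases of Kcnn2-206 and 1924 of 2845 bases of Kcnn2-207 lie within coding sequence of other transcripts of the gene. How reads were divided among these overlapping transcripts is an estimate in the deposited tables.

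Voltage-gated potassium alpha subunits were the subfamily with the most detected genes, 16 of 40. Kcnh2 (ENSMUSG00000038319.10, chromosome 5, 24319589 to 24351604, minus strand), the ERG channel of cardiac repolarization, led with 99.0 TPM in replicate 1 and 73.9 TPM in replicate 2. Kcnq1, the slow delayed rectifier of heart and epithelia, was at 14.2 and 17.0 TPM. Kcnc4, a Kv3 channel that deactivates fast, averaged 8.71 ± 0.63 TPM (SD, n = 2). Kcng2, whose product is silent alone and modifies Kv2 channels, averaged 6.51 ± 2.62 TPM. Kcna5 (Kv1.5) averaged 3.62 ± 0.28 TPM. Lower still, Kcng3, another modifier, averaged 2.98 ± 0.55 TPM, Kcnd3, an A-type channel, 2.91 ± 0.93 TPM, and Kcnh3 2.10 ± 0.40 TPM (SD, n = 2 each). By the 2-fold rule described below, 0 of the 29 tested genes of this subfamily were called different between the libraries, beside 6.79% of all genes tested, a difference that was not tested.

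Every potassium channel pore carries a short selectivity filter, in which the backbone of a glycine-tyrosine-glycine run or a close variant binds dehydrated potassium. The coding sequences were searched in frame for 5 residues: threonine or serine, then valine, isoleucine, leucine or alanine, then glycine, then tyrosine, phenylalanine or leucine, then glycine. All 74 potassium pore genes of the set held such a stretch in their longest annotated coding sequence, none of the 47 other members did, and 1.63% of 21428 protein-coding genes did. The stretches of 7 detected pore genes are shown because the filter is what makes these genes potassium channels and because it shows which transcripts cover the pore region. Each line gives 27 bases of the leading near-full coding transcript, 5′ to 3′ on the strand of the gene, from GENCODE M21 on GRCm38, with the 15 filter bases in capitals.
Kcnh2, chr5:24325549-24325575, minus strand: ctcaccAGCGTGGGCTTTGGCaatgtc
Kcnma1, chr14:23528407-23528433, minus strand: atgtctACAGTGGGTTATGGGgacgtt
Kcnt1, chr2:25894361-25894387, plus strand: ttctcaACTGTGGGCTTCGGTgatgtg
Kcnc4, chr3:107447793-107447819, minus strand: atgacaACGCTTGGCTATGGGgacatg
Kcnk1, chr8:126025323-126025349, plus strand: ctgagcACCATCGGCCTGGGGgactat
Kcnk2, chr1:189256575-189256601, minus strand: ctgacgACCATTGGATTTGGAgactac
Kcnn1, chr8:70850651-70850677, minus strand: ttcttgTCCATTGGCTATGGAgacatg
In Kcnh2 and Kcnt1, and in the stretch shown for Kcnk2, the codon between the glycines reads phenylalanine (TTT or TTC), in Kcnk1 it reads leucine (CTG), and in the others tyrosine (TAT). Kcnk1 and Kcnk2 are tandem-pore genes, and the stretch shown is that of the second pore loop.

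The filter stretch was found in the leading near-full coding transcript of 27 of the 28 detected pore genes. The exception was Kcnj8, whose single listed transcript, Kcnj8-201, has 381 coding bases in release M21, against 1272 in a transcript of that release that the tables do not list. In 19 of the 27, transcripts that hold the stretch had 90% or more of the TPM of the gene in both libraries. Kcnn2 was among the 8 below that: transcripts that hold its stretch, including Kcnn2-207 but not Kcnn2-206, had 50.8% of its TPM in replicate 1 and 55.0% in replicate 2. These sums were 127.5 and 146.2 TPM, still the highest among these 27 pore genes of the set, with Kcnh2 next at 75.8 and 59.4 TPM. Kcnt1 had the lowest share, 38.3% and 37.8%.

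Tandem-pore (K2P) channels carry background potassium current. Kcnk1 (TWIK1) was at 23.3 in replicate 1 and 6.54 TPM in replicate 2, so its rank among the 121 rested on replicate 1. Kcnk2, the mechanically gated and lipid-gated TREK1, which is known from bovine cortisol-producing cells, was at 9.75 and 11.5 TPM. Kcnk5 (TASK2) was at 6.15 in replicate 1 and 9.63 TPM in replicate 2, and Kcnk6 (TWIK2) at 5.39 and 4.09 TPM. The other 8 members of the K2P group were not detected. The K2P genes left out of the set were above all of these: Kcnk3 (TASK1) was at 3273 and 3726 TPM and Kcnk9 (TASK3) at 49.8 and 49.6 TPM. Of the other genes left out, Cacna1h was at 201.7 and 160.3 TPM, Cacna1d at 3.27 and 3.70 TPM, and Kcnj5 at 0.13 and 0.06 TPM, all in the order replicate 1, replicate 2.

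Inward rectifiers pass potassium more readily into the cell than out of it. Of 14 members, 2 were detected. Kcnj8, the Kir6.1 pore of KATP channels of vascular muscle and pericytes, was at 7.37 in replicate 1 and 4.91 TPM in replicate 2. Kcnj12 (Kir2.2) was at 5.17 and 4.91 TPM. Kcnj11, the Kir6.2 pore of KATP channels, and Kcnj4 (Kir2.3) reached 1 TPM in replicate 1 alone, with 2.62 and 0.85 TPM for Kcnj11 and 3.80 and 0.36 TPM for Kcnj4. Among the sulfonylurea receptors that complete KATP channels, Abcc9, the partner of Kir6.1 in vessels, was at 1.81 and 2.75 TPM, and Abcc8 stayed under 1 TPM.

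Auxiliary potassium subunits were mostly low. Of 13 Kcnab, Kcne, Kcnip and Kcnrg genes, 3 were detected: Kcnab3, a cytoplasmic beta subunit, at 12.7 in replicate 1 and 8.96 TPM in replicate 2, Kcnip3, a calcium-binding partner of Kv4 channels also known as DREAM, at 6.93 and 6.33 TPM, and Kcnab2 at 3.64 and 3.22 TPM. Among BK beta subunits, Kcnmb4, the form known from neurons, was the only detected gene of 4. It had 358 read pairs and 23.0 TPM in replicate 1, against 38 read pairs and 2.46 TPM in replicate 2. Near-full coding transcripts of Kcnmb4 held 3.41 TPM in replicate 1 and 0.25 TPM in replicate 2, under the detection level in replicate 2. Kcnmb1, the form of smooth muscle, and Kcnmb2, which inactivates BK channels in rat chromaffin cells, stayed under 1 TPM in both libraries. Lrrc55, a BK gamma subunit, was at 11.6 and 12.1 TPM.

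**Figure D2:**
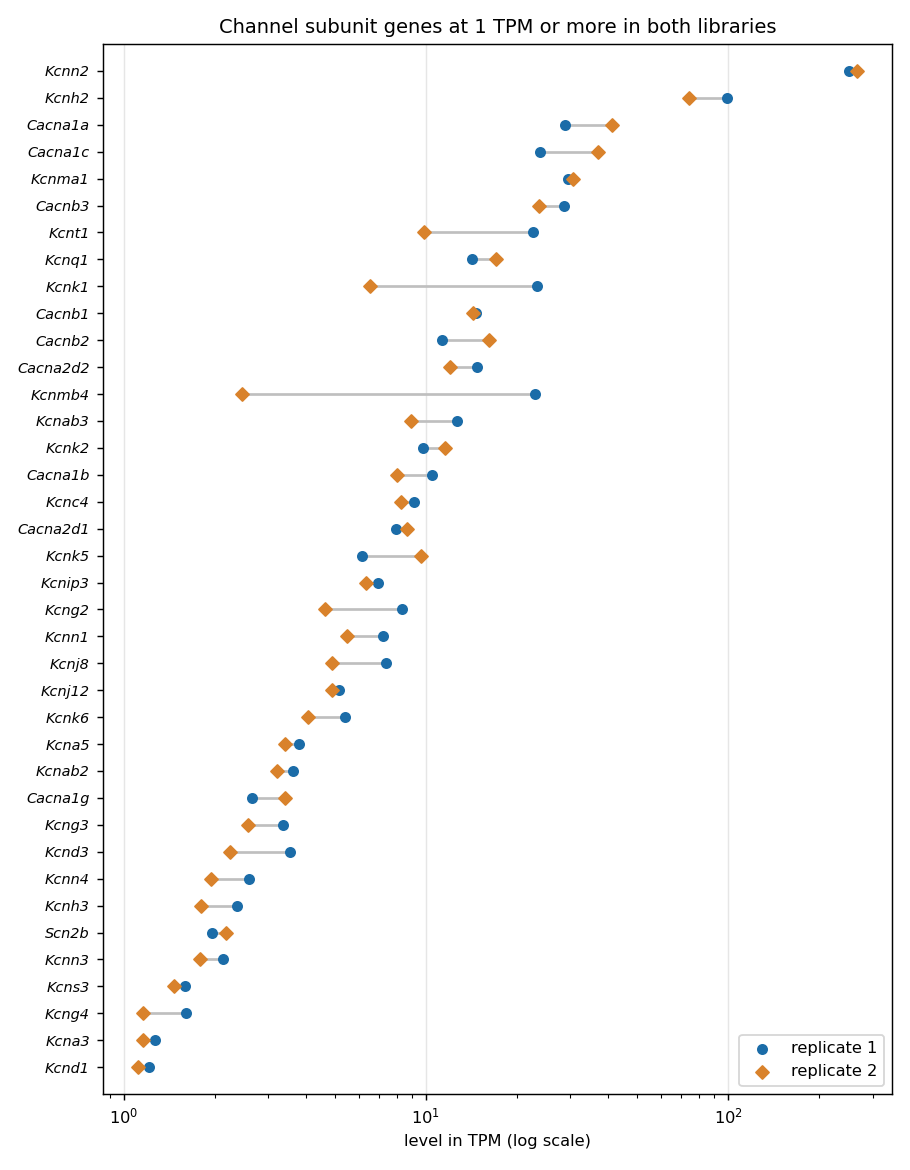
TPM on a log axis of 38 of the 43 detected channel subunit genes, with replicate 1 as circles, replicate 2 as diamonds and a line joining both. Kcnn2 lay above 250 TPM in both libraries, and Kcnmb4 had the widest gap among them, 23.0 TPM in replicate 1 and 2.46 TPM in replicate 2.

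Calcium channels had detected genes for each kind of subunit. The alpha-1 subunit forms the pore. Cacna1c (ENSMUSG00000051331.10, chromosome 6, 118587240 to 119196418, minus strand), the L-type channel Cav1.2, was at 23.8 in replicate 1 and 37.2 TPM in replicate 2. Cacna1b, the N-type channel of nerve and chromaffin cells, was at 10.4 and 8.05 TPM. Cacna1g, the T-type channel Cav3.1, averaged 3.04 ± 0.54 TPM (SD, n = 2), and the other alpha-1 genes of the set apart from Cacna1a were not detected. Near-full coding transcripts of Cacna1g held 0.71 TPM in replicate 1 and 0.39 TPM in replicate 2, under the detection level. Its TPM was higher in replicate 2 (2.65 and 3.42 TPM), whereas its scaled counts were higher in replicate 1 (log2 ratio 0.465).

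Cacna1a, the pore of P/Q-type channels, ranked 3 by TPM, but most of that level rested on a short transcript. The gene was at 28.8 TPM from 1032 read pairs in replicate 1 and at 41.2 TPM from 857 read pairs in replicate 2, so TPM and scaled counts gave opposite orders of the libraries. Cacna1a-205, a processed transcript of 249 nt at GRCm38 chromosome 8, 84638991 to 84639434, plus strand, held 23.0 TPM from 42.7 estimated read pairs in replicate 1 and 36.4 TPM from 85.0 in replicate 2. That was 79.9% and 88.4% of the TPM of the gene. Near-full coding transcripts held 3.66 TPM in replicate 1 and 2.64 TPM in replicate 2, and by those Cacna1a ranked 28 among the 43 detected genes. Cacna1a-205 has 2 exons, of which the 52 bases of exon 1 (84638991 to 84639042) lie outside the exons of the coding transcripts, and the 197 bases of exon 2 (84639238 to 84639434) lie within their coding sequence near the end of the gene. It is shown because so few reads on so short a sequence set the rank of the gene, with the bases outside the exons of coding transcripts in capitals.
Cacna1a-205, chr8:84638991-84639434, plus strand, 249 bases over 2 exons: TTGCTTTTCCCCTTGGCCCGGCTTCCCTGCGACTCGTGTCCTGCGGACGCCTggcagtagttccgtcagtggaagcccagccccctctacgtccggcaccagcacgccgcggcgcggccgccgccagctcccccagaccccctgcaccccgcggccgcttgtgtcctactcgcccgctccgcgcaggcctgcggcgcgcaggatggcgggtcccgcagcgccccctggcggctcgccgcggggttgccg

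Beta subunits bind the alpha-1 loop inside the cell, and alpha-2-delta subunits sit outside it. Beta genes summed to 54.3 TPM and alpha-2-delta genes to 22.4 TPM, as means of both libraries. The alpha-1 genes of the set, which leaves out Cacna1h and Cacna1d, summed to 78.9 TPM. Cacnb3 was at 28.6 in replicate 1 and 23.6 TPM in replicate 2, all of it in near-full coding transcripts. It ranked 2 among the detected genes of the set by near-full coding TPM. Cacnb1, the beta subunit of skeletal muscle, was at 14.6 and 14.3 TPM, and Cacnb2 at 11.3 and 16.2 TPM. Cacnb4 was not detected. Cacna2d2 averaged 13.4 ± 1.9 TPM and Cacna2d1, the target of gabapentin, 8.31 ± 0.52 TPM (SD, n = 2 each), and Cacna2d3 and Cacna2d4 stayed under 1 TPM.

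Sodium channels were represented by beta subunits without a detected pore. Of the 4 beta subunits 2 were detected, among them Scn2b, an adhesion-type subunit, at 1.96 in replicate 1 and 2.18 TPM in replicate 2. None of the 10 alpha subunits reached 1 TPM in either library. The highest, Scn8a (Nav1.6), was at 0.88 TPM from 321 read pairs in replicate 1 and 0.69 TPM from 240 in replicate 2. Scn7a, an atypical channel of glia, averaged 0.50 ± 0.04 TPM (SD, n = 2). Scn3a, known from mouse chromaffin cells, was at 0.29 and 0.31 TPM, with 92.8 and 103 estimated read pairs. The alpha subunits together summed to 2.02 TPM in replicate 1 and 2.32 TPM in replicate 2, which places them at a low level but not at 0.

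Of the 71 genes under 1 TPM in both libraries, 59 had at least some reads. The 12 without a read in either library were Kcna10, Kcne2, Kcnh7, Kcnj1, Kcnj13, Kcnj16, Kcnk10, Kcnk16, Kcnmb3, Kcns1, Kcnv2 and Scn11a. At this depth a count of 0 allows a share of up to 6.3e-06% of the counts in replicate 1 and 5.67e-06% in replicate 2, taking 3 counts as the limit. Several have defining sites elsewhere, such as Kcnj1 in kidney tubule and Kcnv2 in retina. The kidney markers were also low, with 0 of 4 detected and Kap without a read. In the sodium channel cluster of chromosome 2 (65457118 to 66784914), none of Scn3a, Scn2a, Scn1a, Scn9a and Scn7a was detected, whereas Scn2b but not its neighbour Scn4b was detected on chromosome 9.

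The libraries were compared gene by gene with a two-sided exact binomial test of rounded expected counts, scaled by TMM, a factor that sets most genes equal between libraries. Benjamini-Hochberg adjustment ran over the 15824 genes whose counts summed to 20 or more, and a call needed an adjusted p under 0.05 and a 2-fold difference. The test covers counting error between these libraries and no conditions. Of the 87 channel genes tested, 9 were called, which is 10.3%, against 6.79% of all genes tested. Replicate 1 was higher in 6 of them (4.27% of all genes were called in that direction) and replicate 2 in 3 (2.52%). With spike-in scaling the balance turned over: of 15 channel genes called, 4 were higher in replicate 1 and 11 in replicate 2. Without the fold limit 45 of the 87 passed, where 57.8% of all genes did.

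The genes called higher in replicate 1 came from several subfamilies. Kcnj4 had 258 read pairs in replicate 1 and 26 in replicate 2, for a log2 ratio of 3.43 (95% interval 2.87 to 4.10, adjusted p = 2.97e-53 by the exact binomial test). Kcnmb4 had 358 and 38 read pairs, a log2 ratio of 3.36 (2.90 to 3.91, adjusted p = 2.48e-72, same exact test). Kcnk1 had 1704 and 514 read pairs, a log2 ratio of 1.88 (1.73 to 2.02, adjusted p = 3.82e-174, same exact test). These 3 lay above every other called gene in the set. Kcnj11 (log2 ratio 1.65), Cacna1e (1.73, from 19 and 6 read pairs) and Kcnt1 (1.13) made up the rest, the R-type channel Cacna1e at under 0.1 TPM. In the same direction, 4 of the 7 tested sympathetic neuron markers and all 4 tested stomach and pancreas markers were called, with median log2 ratios of 1.17 and 4.74, and 2 of 6 adipocyte markers, with a median of 0.84. Of the 8 sympathetic neuron markers, which summed to 990.0 TPM in replicate 1 and 533.2 TPM in replicate 2, Npy made up most with 875.9 and 469.0 TPM and was not called. The called markers of that list, Prph, Isl1, Stmn2 and Elavl4, were at 8.30, 9.99, 2.79 and 0.34 TPM in replicate 1 and at 1.70, 2.59, 1.17 and 0.17 TPM in replicate 2. The part of these tissues in the channel genes was not tested.

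**Figure D3:**
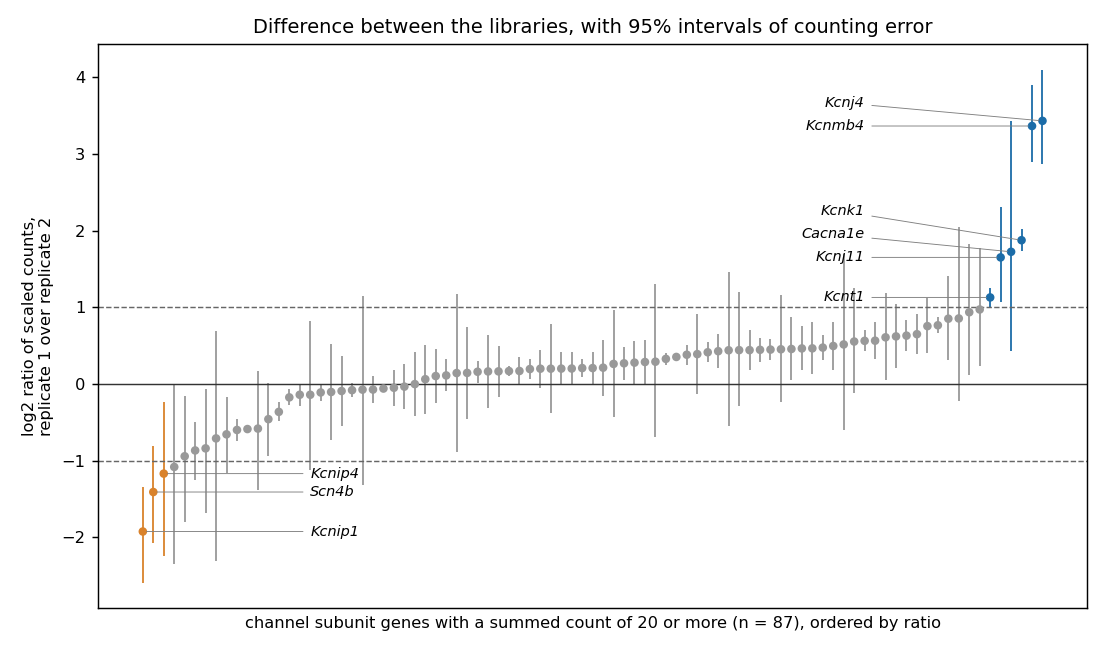
Log2 ratio of scaled counts, replicate 1 over replicate 2, of the 87 channel subunit genes tested, ordered by ratio, with 95% intervals of counting error, the 2-fold limits as dashed lines, blue for genes called higher in replicate 1 and orange for replicate 2. Most intervals lay within the limits, and Kcnj4 and Kcnmb4 stood above 3.

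The genes called higher in replicate 2 were low. Kcnip1, a Kv4 partner, had 28 read pairs in replicate 1 and 119 in replicate 2, for a log2 ratio of -1.92 (adjusted p = 7.11e-12, exact binomial test). Scn4b, a sodium channel beta subunit, had 30 and 89 read pairs, a log2 ratio of -1.41 (adjusted p = 3.51e-06, same exact test), and Kcnip4, of the Kcnip1 family, had 13 and 33, a log2 ratio of -1.17 (adjusted p = 0.0236, same exact test). All 3 were under 1 TPM in replicate 1. All 4 liver markers were called in this direction too, and the 8 cortex markers had a median log2 ratio of -0.46. Their part in the channel genes was not tested. Across the 87 tested channel genes 61 ratios were above 0, with a median of 0.21 against -0.0045 over all genes tested, so the channel genes lay 0.21 above the median of all genes. Scaling by spike-in RNA moved every gene down by about the same amount. The median of all genes became -0.43 and that of the channel genes -0.22, with 32 above 0. The distance between the medians, again 0.21, could hardly change under such a shift. As log2 of TPM + 1 the distance was 0.0821, with 52 of the 87 channel genes above 0.

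Beyond Kcnn2 and Cacna1a, the transcript tables showed how many of these genes carried their TPM in transcripts without a coding class. Of the 43 detected genes, 10 have a single listed transcript. Of the other 33, 27 had the same leading transcript in both libraries. The leading transcript was near-full coding in both libraries in 31 genes (Kcnj8 among them by the transcripts listed, but not by all transcripts of release M21) and not classed as protein-coding in both libraries in 7, which is 16.3%, beside 12.8% of all 11718 detected protein-coding genes. The 7 were Kcnn2, Cacna1a, Cacna1c, Kcnt1, Cacna2d2, Kcnmb4 and Cacna1g. Summed over detected genes, transcripts not classed as protein-coding held 49.4% of the TPM in replicate 1 and 53.3% in replicate 2, and 28.2% and 28.6% without Kcnn2. Over all detected protein-coding genes they held 19.4% in each library. Because such transcripts are shorter, the same question in expected counts gave protein-coding transcripts 64.6% in replicate 1 and 61.4% in replicate 2. By near-full coding TPM the order began with Kcnh2 (32.9 ± 3.1 TPM) and Cacnb3 (26.1 ± 3.6 TPM), with Kcnn2 at rank 11 (9.12 ± 5.82 TPM, SD, n = 2 each).

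**Figure D4:**
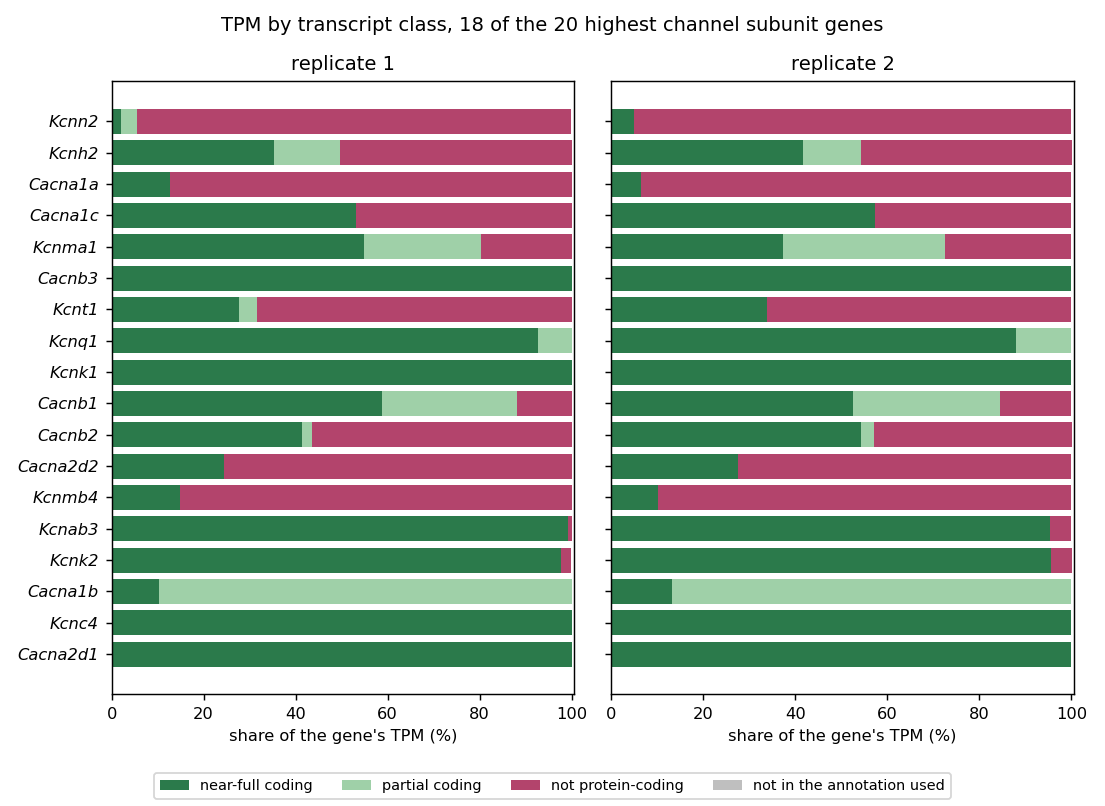
Share of each gene's TPM by transcript class in replicate 1 (left) and replicate 2 (right) for 18 of the 20 highest channel subunit genes, with near-full coding, partial coding, not protein-coding and transcripts absent from the annotation used stacked to 100%. Kcnn2 had 1.99% and 4.98% of its TPM in near-full coding transcripts, whereas Cacnb3 and Kcnk1 had 100% in both.

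In Kcnh2 and Kcnmb4 the processed transcripts that hold much of the TPM include bases outside the exons of the coding transcripts. Kcnh2-203 (710 nt) held 25.5 TPM in replicate 1 and 17.7 TPM in replicate 2, or 25.8% and 24.0% of the TPM of Kcnh2. It rested on 456 of 7284 estimated read pairs in replicate 1 and 345 of 6313 in replicate 2. Protein-coding transcripts held 87.5% and 89.4% of the expected counts of Kcnh2. Kcnh2-203 holds the filter stretch given above. Kcnmb4-204 (517 nt) held 19.6 and 2.21 TPM, or 85.2% and 89.8% of the TPM of Kcnmb4, so the difference between the libraries in Kcnmb4 was also seen in this transcript. The parts that set them apart are shown with 40 flanking exonic bases where present in lower case, and with the 118 bases of Kcnh2-203 and the 139 bases of Kcnmb4-204 outside the coding transcripts' exons in capitals.
Kcnh2-203, bases 257 to 454, chr5:24325116-24325533, minus strand: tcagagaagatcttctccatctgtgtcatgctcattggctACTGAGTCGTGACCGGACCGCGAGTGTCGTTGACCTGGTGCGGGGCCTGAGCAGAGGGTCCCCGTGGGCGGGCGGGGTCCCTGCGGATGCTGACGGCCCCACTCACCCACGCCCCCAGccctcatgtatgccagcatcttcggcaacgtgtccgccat
Kcnmb4-204, bases 339 to 517, chr10:116436193-116446366, minus strand: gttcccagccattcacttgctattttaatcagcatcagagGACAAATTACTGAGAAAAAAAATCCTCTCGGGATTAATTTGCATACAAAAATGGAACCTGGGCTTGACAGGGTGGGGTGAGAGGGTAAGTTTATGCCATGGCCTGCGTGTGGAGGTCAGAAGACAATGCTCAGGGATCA

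Other genes differed in how their coding transcripts were divided. In Cacna1b, 89.7% of the TPM in replicate 1 and 86.8% in replicate 2 lay in partial coding transcripts. Chief among them was Cacna1b-208, of 523 nt with 504 coding bases, at 6.27 and 4.85 TPM from 71.3 and 60.6 estimated read pairs. In expected counts, however, near-full coding transcripts held most of Cacna1b, 74.4% in replicate 1 and 78.9% in replicate 2. Cacnb3 was divided between Cacnb3-201 with 64.4% and 63.1% and Cacnb3-202 with 35.6% and 36.9%, nearly the same in both libraries. In Cacnb2 the libraries differed: the coding transcript Cacnb2-214 held 2.92% of the TPM in replicate 1 and 31.6% in replicate 2. In Cacnb1, Cacnb1-202 and Cacnb1-205, which span the same positions, held 29.4% and 0% in replicate 1 but 5.25% and 25.4% in replicate 2. Kcnq1 kept 92.7% and 87.9% in Kcnq1-201, its longest coding form.

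Antisense neighbours are a further limit, since neither the labels nor the tables say whether counting used strand. Kcnq1ot1, the antisense RNA of the imprinted Kcnq1 domain, shares 121 exonic bases with Kcnq1 and had 378 read pairs in replicate 1 and 636 in replicate 2. A430027H14Rik, antisense to Kcnk2, had 43 and 95. Kcnmb4os2, antisense to Kcnmb4, had 14 and 2.

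Of the 41 partner genes that the naming rule leaves out, 25 were detected, beside 54.6% of all named protein-coding genes. The sodium pump builds the gradients that channels use, and its beta subunits Atp1b3, Atp1b2 and Atp1b1 averaged 98.0, 29.8 and 17.8 TPM. Of the store-operated calcium entry genes, the pores Orai3, Orai1 and Orai2 averaged 92.7, 62.3 and 5.01 TPM, and the sensors Stim1 and Stim2 50.6 and 24.4 TPM. The sensors sit in the endoplasmic reticulum and open the Orai pores when its calcium falls.

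Among pacemaker channels, Hcn3, Hcn2 and Hcn4 averaged 27.6, 24.0 and 2.83 TPM. Calcium channel gamma-type subunits Cacng7, Cacng8 and Cacng4 averaged 11.7, 4.58 and 1.41 TPM. Stac and Stac3, adaptors of L-type channels, averaged 8.15 and 2.00 TPM. The sodium leak channel Nalcn and its partner Unc79 averaged 1.57 and 2.60 TPM, and the Kv4 partner Dpp6 1.77 TPM. Fgf11, of the family that binds sodium channel tails, was at 13.5 in replicate 1 and 5.96 TPM in replicate 2, for a log2 ratio of 1.21 (adjusted p = 6.65e-70, exact binomial test). Of the 35 partner genes tested, 2 were called higher in replicate 1 and 1 in replicate 2, beside 4.27% and 2.52% of all genes tested, and the median log2 ratio was 0.05.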

How the data were processed

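Gene and transcript tables of 2 adrenal gland libraries were used. Per the file headers, the deposited tables list TPM, FPKM and the expected count of each feature, with posterior means, and the deposited transcript tables add the percent of the gene in each transcript. The expected count is not normalized. The authors' TPM and FPKM are scaled per length. The readme files deposited beside them name mm10 and the M4 annotation. The aligner and quantifier were not given in the sources used here. Contig and junction tables in mm9 were not used.

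Names, classes and sequences came from GENCODE M21 (GRCm38, the assembly of mm10), matched by identifier without version. Expected counts were rounded for tests. TMM factors came from edgeR 4.0.16 (DESeq2 1.42.0 as alternative), in R 4.3.3, and binomial tests from scipy 1.17.1. Log2 ratios add 0.5 to each scaled count, with exact 95% Clopper-Pearson intervals. With 2 libraries in 1 group no residual spread is left for a quasi-likelihood test. Intervals and limits cover counting error only. The test was checked on simulated counts.

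Members and lists were chosen with earlier results of these data known. Named were the 30 genes with the highest mean TPM, the highest of each subfamily all called genes and all detected partner genes, and others were named after their values were seen. The class of near-full coding transcripts was also set after the data were seen. Some genes and sequences that the rule covers are not reported here. Protein sequences were not used here, so filter stretches are given as DNA.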

Additional observations from a re-analysis of the deposited data

How the results depend on the processing

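The number of channel genes detected was 43 and lay between 40 and 56 at 0.5 TPM, with FPKM, with posterior mean TPM, with near-full coding transcripts only (41, or 40 against the longest coding sequence of all M21 transcripts, both chosen after seeing the data) and without either replicate (46 and 47), but was 23 at 5 TPM and 76 with 20 expected counts in both libraries. The number called different between the libraries was 9 and was the same 9 genes with DESeq2 size factors, 7 with a summed count of 100 or more, 14 without a filter, 15 with spike-in scaling (4 higher in replicate 1 and 11 in replicate 2, against 6 and 3), 45 without a minimum fold and 4 with edgeR's exact test at an assumed coefficient of variation of 0.2 (Kcnj4, Kcnmb4, Kcnk1 and Kcnip1). Without replicate 1 or 2 the comparison has no value. Spike-in scaling shares 7 of the 9 calls, and Kcnt1 and Cacna1e lose theirs. The median log2 ratio, 0.21, was -0.22 with spike-in scaling, where the median of all genes was -0.43. That scaling shifts all genes alike, so the distance between the medians, 0.21, could hardly change. As log2 of TPM + 1 the median was 0.0462, against -0.0359 over all genes, a smaller distance of 0.0821. The share of TPM in protein-coding transcripts, 46.4%, was 63.0% in expected counts. In expected counts 4 of 11 subfamily shares moved by more than their SD, alpha-2-delta to 4.41% and the sodium alpha subunits to 0.861% among them. The summed TPM, 775.1 as the mean of both libraries, was 804.2 with posterior mean TPM and 783.2 with rescaled FPKM, within its SD of 50.2. Leaving out 1 replicate cannot move the sum past that SD, so that check decides nothing. The number of genes with the same leading transcript, 27, was 31 by expected count and 26 by posterior mean TPM. The cause was not tested. No paired analysis was possible because there is 1 group. Low counts limit the ratios: Cacna1e rests on 19 and 6 read pairs.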
